A study of Mus musculus with 6 samples.

Results

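The genes of fatty acid synthesis, elongation and desaturation were followed in MLE12 cells, an established mouse lung alveolar epithelial line, by RNA-seq. They were 10 of the 54532 genes in the count table, matched by name: Srebf1, Acaca, Acacb, Fasn, Elovl6, Scd1, Scd2, Elovl5, Fads1 and Fads2. The 3 Ctrl shRNA samples were infected with 1 control lentivirus at a multiplicity of infection of 50. The methods of the study call it an empty vector and also shCtrl, and print a sequence for it. The 3 knockdown samples received 2 lentiviruses together, an Idh3α shRNA and a Slc25a1 shRNA, each at a multiplicity of 50. Virus was washed off after 16 h and culture went on for 80 h in HITES medium with serum, and all samples shared the line and a label of strain C57BL/6J. The knockdown cells therefore received more virus than the controls, and the effect of the silencing and that of the added virus cannot be told apart. The labels do not say whether replicates were separate cultures, so p values measure only the spread between these samples, which may be technical.

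Fatty acids are made in the cytosol from acetyl-CoA, which comes largely from citrate that Slc25a1 carries out of the mitochondria. Acetyl-CoA carboxylase makes malonyl-CoA, fatty acid synthase builds palmitate from it, elongases of the Elovl family lengthen the chain, and desaturases of the Scd and Fads families add double bonds. Srebf1 encodes SREBP1, a membrane-bound transcription factor that switches on most of these genes. In the alveolar type 2 cell the pathway supplies the phosphatidylcholine of surfactant.

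Sequences upstream of the genes are shown first, since members of this pathway are textbook targets of shared factors. Of the 10 genes, 7 had an entry among the RefSeq promoters of GRCm38.p6, with 9 promoters in all, 3 of them for Srebf1. The 250 bases before the transcription start are given 5′ to 3′ on the strand of the gene. Fasn and Elovl6 are shown because they had the largest positive fold changes of the 10, with and without Ctrl shRNA replicate 2, and Elovl5 as the other elongase. Capitals mark the CCAAT letters of an NF-Y box on either strand (CCAAT or ATTGG). The Fasn window lay at chr11:120824548-120824797 on the minus strand, that of Elovl6 at chr3:129532136-129532385 on the plus strand and that of Elovl5 at chr9:77917115-77917364 on the plus strand.
Fasn: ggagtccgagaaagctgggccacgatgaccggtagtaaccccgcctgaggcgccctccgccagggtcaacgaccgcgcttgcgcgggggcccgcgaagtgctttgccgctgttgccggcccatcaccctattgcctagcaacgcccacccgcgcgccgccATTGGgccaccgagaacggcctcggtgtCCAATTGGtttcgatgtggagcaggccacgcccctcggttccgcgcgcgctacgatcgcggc
Elovl6: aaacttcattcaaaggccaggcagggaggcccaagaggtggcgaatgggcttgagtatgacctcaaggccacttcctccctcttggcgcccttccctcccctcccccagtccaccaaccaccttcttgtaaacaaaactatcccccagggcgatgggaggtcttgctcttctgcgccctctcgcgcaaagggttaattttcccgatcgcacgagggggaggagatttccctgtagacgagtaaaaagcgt
Elovl5: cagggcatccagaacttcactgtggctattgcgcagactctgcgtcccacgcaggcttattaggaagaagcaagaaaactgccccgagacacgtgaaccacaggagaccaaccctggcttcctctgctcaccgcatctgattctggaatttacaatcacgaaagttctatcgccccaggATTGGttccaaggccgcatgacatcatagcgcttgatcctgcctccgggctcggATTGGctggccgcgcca
The Fasn window held 3 CCAAT boxes, which began 90, 62 and 59 bases before the start, and the last 2 overlapped. Elovl5 held 2, at 71 and 17 bases, and Elovl6 held none. A CCAAT box stood in 5 of the 9 promoters, from 4 of the 7 genes, and in 33.8% of all 32851 promoters of that length. The letters TCACNCCAC, searched on both strands for the sterol regulatory element, were in 0 of the 9 promoters and in 1.05% of all. The E-box CACGTG was in 1 of the 9, that of Elovl5, beside 6.02% of all, and the GC box GGGCGG in 3 of the 9 beside 32.7% of all. The windows of Acaca and Acacb and 2 of the 3 of Srebf1 lay at RefSeq starts inside the gene as the count table places it, and the end of the Elovl6 window ran into the gene. These matches are letters in a window and no evidence of binding.

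The libraries held 27273502 to 28535653 counts each. The targeted genes were lower in every knockdown sample than in every control. Idh3a was at 79.8, 137 and 93.0 CPM in the Ctrl shRNA samples, while the knockdown samples measured 58.5, 57.9 and 55.5 CPM, where CPM is the count scaled by TMM factors and library size to a common depth. Slc25a1 was at 103, 98.7 and 108 CPM against 68.9, 69.6 and 63.0 CPM. The edgeR adjusted p was 0.254 for Idh3a and 0.104 for Slc25a1 with all samples, and 0.0142 and 0.00649 without Ctrl shRNA replicate 2. That library stood apart: 6.49% of its counts came from mitochondrially encoded genes and 16681 genes had a count, against 1.57% to 1.80% and 19902 to 23147 genes in the other 5 libraries. Fold changes of the 10 genes are therefore given with and without it. Of 10 alveolar type 2 markers, 6 passed the count filter, and the summed level of the list was 547 to 559 CPM in the controls and 479.8 to 512 CPM in the knockdown samples. Of these markers, Sftpd was at 0 in every library and Sftpa1, Slc34a2 and Lamp3 were near 0, while Nkx2-1 was at 277 to 343 CPM and Abca3 at 110.4 to 141 CPM. Sftpc was at 44.1 to 97.3 CPM in the controls and lower in every knockdown sample, at 27.2 to 35.9 CPM. Nkx2-1 was also lower in every knockdown sample, at 277 to 302 CPM against 324 to 343 CPM. Etv5 and Napsa went the other way and were higher in every knockdown sample. Etv5 was at 23.1 to 27.6 CPM in the controls and 36.5 to 39.5 CPM in the knockdown samples, and Napsa at 0.453 to 0.759 CPM against 1.18 to 1.38 CPM. Of 6 leukocyte markers, Ptprc, Adgre1, Itgam and Marco were at 0 in every library, while Cd68 was at 1.65 to 1.92 CPM in the controls and higher in every knockdown sample, at 2.34 to 2.73 CPM. The 4 endothelial markers summed to 36.7 to 45.8 CPM in the controls and less in every knockdown sample, 31.9 to 33.3 CPM, with nearly all of it from Tek, and the 5 adipocyte markers summed to at most 0.418 CPM. The fibroblast list summed to 346 and 377 CPM in controls 1 and 3 and to 1234 CPM in Ctrl shRNA replicate 2. Its sum was 317 to 345 CPM in the knockdown samples. Dcn made up most of this sum in every library. It was at 320, 1211 and 354 CPM in the controls and 297 to 318 CPM in the knockdown samples. Pdgfra went the other way, at 2.23 to 2.68 CPM in the controls and 3.43 to 3.91 CPM in the knockdown samples. The 7 epithelial markers summed to 324 to 394 CPM in the controls and 364 to 388 CPM in the knockdown samples. The part of these differences in the results below was not tested.

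With all 6 samples, none of the 10 genes passed the test, although 9 of them had a higher fitted level in the knockdown samples. All 10 passed the count filter. At an edgeR adjusted p (quasi-likelihood test, Benjamini-Hochberg) under 0.05, 0 of the 10 were called higher and 0 lower, while 0.0588% of the 15307 genes tested were called higher and 0.00653% lower. At an unadjusted p under 0.05 in the same fit, 4 of the 10 genes were higher (Fasn, Acaca, Elovl6 and Srebf1) and 0 lower, beside 7.47% and 6.65% of all genes. DESeq2 on the same samples called 3 of the 10 higher, Fasn, Acaca and Elovl6, where it called 2.2% of the genes it tested higher and 1.6% lower. On all genes with a count it called 2 of the 10 higher, Fasn and Elovl6, beside 1.55% of genes higher and 0.958% lower. Limma-voom with sample quality weights, which gave Ctrl shRNA replicate 2 a weight of 0.101, called 6 of the 10 higher, those 3 with Scd2, Elovl5 and Srebf1, beside 8.67% higher and 6.34% lower of all genes. Without Ctrl shRNA replicate 2, edgeR called 2 of the 10 higher, Fasn and Elovl6, and 0 lower, beside 1.11% and 0.675% of the 15709 genes tested. DESeq2 without that library called 5 of the 10 higher, Srebf1, Acaca, Fasn, Elovl6 and Scd2, beside 4.74% of genes higher and 3.35% lower. None of these fits called any of the 10 lower. In bulk RNA, more RNA per cell and more cells with a high level cannot be told apart.

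The fitted fold changes were small, and the largest stayed below 1 on the log2 scale. Their median was 0.26 with all samples and 0.22 without Ctrl shRNA replicate 2, where the median over all genes tested was -0.01 and -0.02. For 6 of the 10 genes, every knockdown sample lay above every control, as did 14.7% of all genes tested. These 6 were Srebf1, Acaca, Fasn, Elovl6, Scd2 and Fads2. For 0 of the 10 every knockdown sample lay below every control, as was so for 10.7% of all genes. Without Ctrl shRNA replicate 2 those above were 7, with Elovl5 added, beside 20.4% of all genes, and the knockdown samples of Acacb lay below the controls, as for 17.5% of all genes. Ctrl shRNA replicate 2 was the lowest control for 9 of the 10 genes and the highest for Elovl5. Leaving it out made the fold change smaller, or more negative for Acacb, in 9 of the 10.

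**Figure D1:**
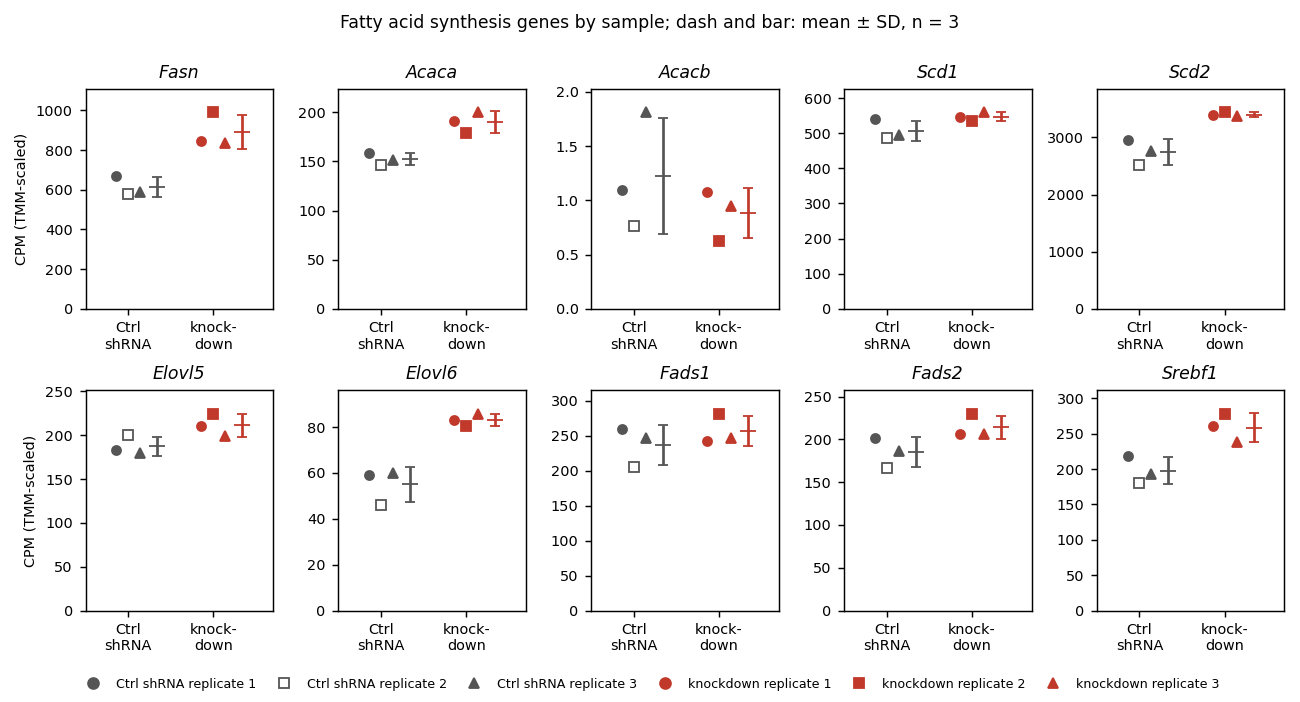
TMM-scaled CPM (vertical axis from 0) of each of the 10 genes in the 3 Ctrl shRNA samples (grey, replicate 2 open) and the 3 knockdown samples (red), with the mean and SD of each group. The knockdown points of Elovl6, 80.5 to 85.7 CPM, lie clear of the controls, 46.0 to 59.9 CPM, while those of Fads1, 242 to 281 CPM, overlap the controls, 205 to 259.8 CPM.

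Srebf1 encodes the regulator of the pathway and lies at chr11:60199089-60222581 on the minus strand. It was at 219, 181 and 193 CPM in the controls, compared with 260.5, 278 and 238 CPM after knockdown. The lowest knockdown sample lay above the highest control, and the group means differed by 31.0%. In edgeR the log2 fold change was 0.39 ± 0.11 (SE) with an adjusted p of 0.296. Without Ctrl shRNA replicate 2 it was 0.32 ± 0.09 with an edgeR adjusted p of 0.121, so neither fit called it. Srebf1 shares 109 exon bases with Rai1 on the opposite strand, and whether the counting used strand is not given in the sources used here. Rai1 had a log2 fold change of 0.05 ± 0.13.

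Acaca and Acacb encode the acetyl-CoA carboxylases, the step that commits acetyl-CoA to fatty acids. Acaca makes the cytosolic enzyme of synthesis and lies at chr11:84129672-84401651 on the plus strand. Its levels were 159, 147 and 152 CPM in the controls and 192, 179 and 200.1 CPM in the knockdown samples. The groups did not overlap, and the mean was 24.7% higher in the knockdown samples. The log2 fold change of 0.32 ± 0.08 (SE) had an edgeR adjusted p of 0.268, and the value of 0.28 ± 0.07 without Ctrl shRNA replicate 2 had one of 0.105. DESeq2 with all samples gave an adjusted p of 0.0343. In the annotation, 30.4% of the 50-base stretches of Acaca transcripts also occur in transcripts of other genes, so part of its reads may be shared.

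Acacb, whose product sits at the mitochondrial surface and restrains fatty acid oxidation, lies at chr5:114146535-114250761 on the plus strand and was barely expressed. It had 34, 15 and 52 counts in the controls and 32, 19 and 28 counts in the knockdown samples. The groups overlapped on the CPM scale, at 0.759 to 1.81 CPM in the controls and 0.626 to 1.08 CPM in the knockdown samples. It was the only one of the 10 genes with a negative log2 fold change, -0.48 ± 0.43 (SE), with an edgeR adjusted p of 0.574. The value without Ctrl shRNA replicate 2 was -0.73 ± 0.36 with an edgeR adjusted p of 0.298. Neither fit called it.

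Fasn encodes fatty acid synthase, the multifunctional enzyme that builds palmitate, and lies at chr11:120805846-120824547 on the minus strand. It was at 671, 578 and 591 CPM across the 3 controls, against 845, 991 and 837 CPM across the 3 knockdown samples. Every knockdown sample exceeded every control, and the mean went from 613 ± 50.4 to 891 ± 86.7 CPM (SD, n = 3 each), a difference of 45.3%. The log2 fold change was 0.54 ± 0.12 (SE) with an edgeR adjusted p of 0.245. Without Ctrl shRNA replicate 2, Fasn rose by a log2 fold change of 0.49 ± 0.10 with an edgeR adjusted p of 0.0488, just inside the threshold. The call thus rests on leaving that library out, or on the test used, since DESeq2 with all samples gave an adjusted p of 0.00394.

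Elovl6 encodes the elongase that extends palmitate to stearate and lies at chr3:129532355-129638495 on the plus strand. It had the largest relative difference of the 10 genes with all samples. It was at 59.1, 46.0 and 59.9 CPM across the 3 controls, against 83.0, 80.5 and 85.7 CPM across the 3 knockdown samples. The mean of the knockdown samples, 83.1 ± 2.63 CPM, was 51.1% above that of the controls, 55.0 ± 7.82 CPM (SD, n = 3 each). Ctrl shRNA replicate 2 lay well below the other 2 controls, and without it the difference was 39.7%. The log2 fold change was 0.60 ± 0.12 (SE) with an edgeR adjusted p of 0.207. Without that library Elovl6 rose by 0.47 ± 0.07 on the log2 scale with an edgeR adjusted p of 0.0160. DESeq2 with all samples gave an adjusted p of 0.00640.

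**Figure D2:**
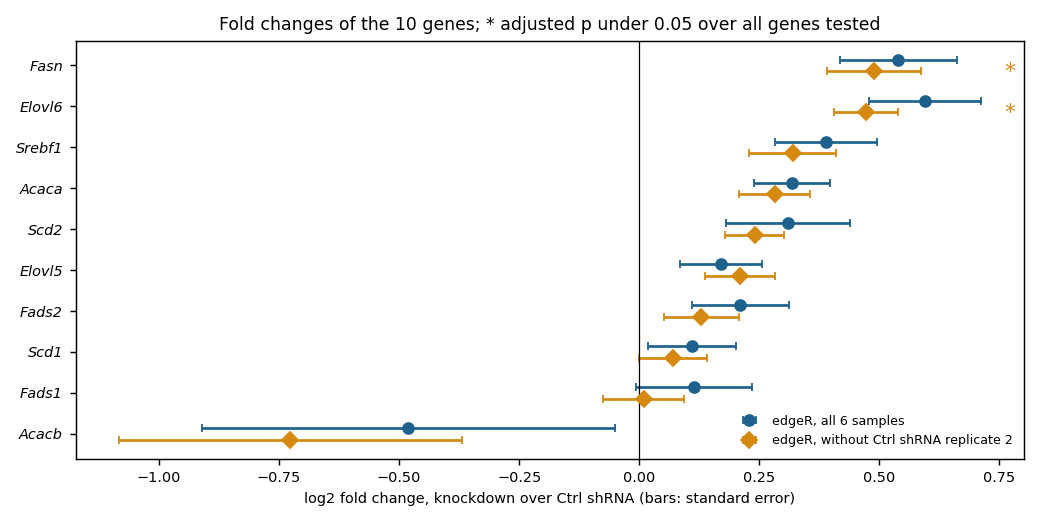
Log2 fold change of knockdown over Ctrl shRNA for each gene (horizontal axis), with the standard error as a bar, from edgeR on all 6 samples (circles) and without Ctrl shRNA replicate 2 (diamonds). The asterisks mark Fasn and Elovl6, at 0.49 and 0.47 without that library, and Acacb alone lies left of 0.

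Scd1 and Scd2 encode stearoyl-CoA desaturases, which turn stearate and palmitate into their monounsaturated forms, and they are neighbours on chromosome 19. Scd2, at chr19:44293676-44306864 on the plus strand, was at 2961, 2513 and 2755 CPM across the 3 controls, against 3388, 3443 and 3368 CPM across the 3 knockdown samples. The groups did not overlap, and the means differed by 24.0%. The log2 fold change of 0.31 ± 0.13 (SE) had an edgeR adjusted p of 0.354, and that of 0.24 ± 0.06 without Ctrl shRNA replicate 2 had one of 0.0989. Scd1, at chr19:44394451-44407709 on the minus strand, was at 539.7, 485 and 495 CPM against 546, 534 and 559.9 CPM. Its first control lay above the lowest knockdown sample. The log2 fold change of Scd1 was 0.11 ± 0.09 with an edgeR adjusted p of 0.545, and 0.07 ± 0.07 with 0.611 without Ctrl shRNA replicate 2. The desaturases share some sequence: 4.56% of the 50-base stretches of Scd1 and 3.97% of those of Scd2 also occur in another gene.

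Elovl5, Fads1 and Fads2 act on polyunsaturated fatty acids, Elovl5 as an elongase and Fads1 and Fads2 as the delta-5 and delta-6 desaturases. Elovl5, at chr9:77917364-77984519 on the plus strand, was at 183, 200.1 and 180.3 CPM in the Ctrl shRNA samples, while the knockdown samples measured 210.2, 224 and 199 CPM. Only Ctrl shRNA replicate 2 reached the range of the knockdown samples. Its log2 fold change was 0.17 ± 0.09 (SE) with an edgeR adjusted p of 0.378, and 0.21 ± 0.07 with 0.173 without that library.

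Fads1, at chr19:10182888-10196870 on the plus strand, was at 259.8, 205 and 246 CPM across the 3 controls, against 242, 281 and 246 CPM across the 3 knockdown samples. The groups overlapped, and the log2 fold change fell from 0.11 ± 0.12 (SE) to 0.01 ± 0.08 without Ctrl shRNA replicate 2, with edgeR adjusted p of 0.639 and 0.964. Fads2, at chr19:10064164-10101503 on the minus strand, was at 202, 166 and 187 CPM against 206, 229.7 and 207 CPM. Its knockdown samples all lay above its controls, by a narrow margin. For Fads2 the log2 fold change was 0.21 ± 0.10 with an edgeR adjusted p of 0.371, and 0.13 ± 0.08 with 0.391 without that library.

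Levels between genes were compared as FPKM, which divides by gene length. Scd2 was the most abundant of the 10 genes in both groups, at 504 ± 44.8 FPKM in the controls and 625 ± 6.63 FPKM in the knockdown samples (SD, n = 3), and ranked 61 among the 15307 genes tested by its mean over all 6 samples and 107 by its mean in the controls. It made up 51.9% to 54.1% of the summed FPKM of the 10 genes in each library. In the controls the order went on with Fads2 at 123 ± 12.8, Scd1 at 105 ± 6.59, Fads1 at 68.8 ± 8.87, Fasn at 56.1 ± 4.89, Elovl5 at 53.4 ± 2.60 and Srebf1 at 35.2 ± 3.63 FPKM. Acaca at 8.95 ± 0.418 and Elovl6 at 8.58 ± 1.29 FPKM were much lower, and Acacb was at 0.128 ± 0.0569 FPKM. The ranges of Fads2 and Scd1, Fads1 and Fasn, Fasn and Elovl5, and Acaca and Elovl6 overlapped among the controls, so these neighbours are not ordered. In the knockdown samples Fasn stood at 81.6 ± 7.87 FPKM, clear of Elovl5 at 60.1 ± 3.56 FPKM, and still overlapped Fads1 at 74.4 ± 6.15 FPKM. The length used for Fads2 was 1508 bases, against 3295 exon bases in GENCODE M21, and that for Fads1 was 3456 against 4812, so the places of both depend on the gene model.

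**Figure D3:**
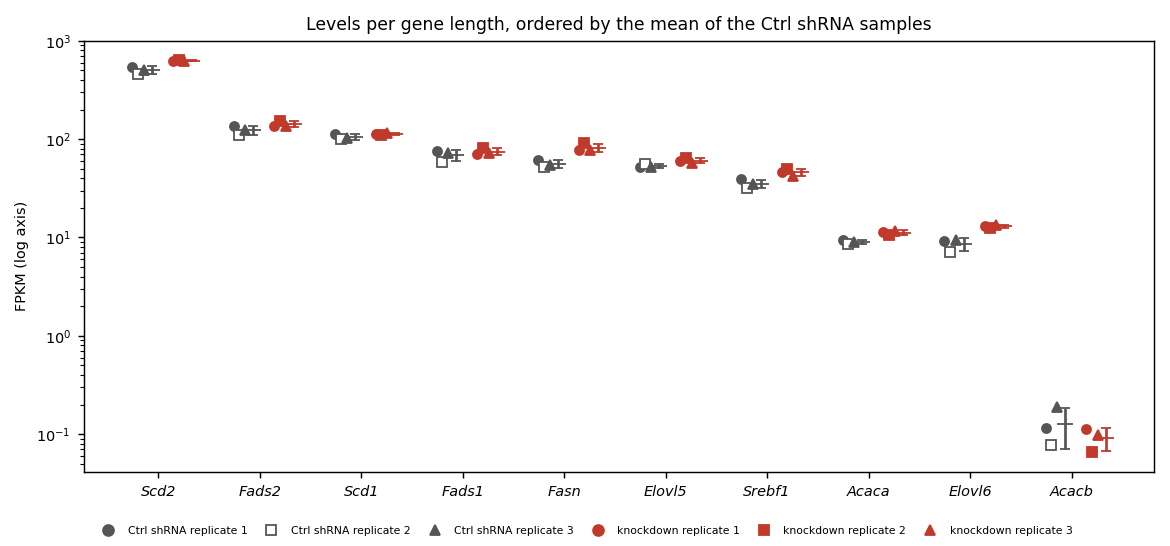
FPKM on a log axis for the 10 genes in order of the control mean, with Ctrl shRNA samples in grey (replicate 2 open), knockdown samples in red and the mean and SD of each group. Scd2 leads at 504 FPKM in the controls and Acacb, at 0.128 FPKM, lies far below the rest.

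The summed FPKM of the 10 genes was 1041, 881 and 969 in the controls and 1152, 1205 and 1146 in the knockdown samples. The lowest knockdown sum lay above the highest control sum. As a share of all counts the 10 genes took 0.570%, 0.321% and 0.511% in the controls and 0.634%, 0.674% and 0.636% in the knockdown samples, with the lowest share in Ctrl shRNA replicate 2. These shares are not scaled between libraries. The 100 genes with the most counts took 27.2% of that library, against 12.5% to 12.9% of the others.

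Related genes were also compared within each library as the log2 ratio of their counts, a measure that does not depend on scaling between libraries. An exact permutation test of 3 samples against 3 cannot give a p below 0.1, so none of the 5 pairs could pass 0.05. How often other pairs of genes separate the groups was not computed. Among single genes, every knockdown sample lay above every control for 14.7% and below for 10.7%. The log2 ratio of Scd1 to Scd2 was -2.46, -2.37 and -2.48 in the controls and -2.63, -2.69 and -2.59 in the knockdown samples. The groups did not overlap, and the ratio differed by -0.20 (two-sided exact permutation p = 0.1, Benjamini-Hochberg adjusted over 5 pairs 0.167). The ratio of Elovl5 to Elovl6 was 1.63, 2.12 and 1.59 against 1.34, 1.48 and 1.21, again without overlap, a difference of -0.44 with the same exact p values. Without Ctrl shRNA replicate 2, the highest of these controls, the difference was -0.26. The ratio of Fads1 to Fads2 was 0.36, 0.30 and 0.40 against 0.23, 0.29 and 0.25, a difference of -0.10 at the smallest exact p. These groups were also without overlap, but by a narrow margin, with Ctrl shRNA replicate 2 at 0.299 and knockdown replicate 2 at 0.291.

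The ratio of Acaca to Acacb differed by 0.73 (exact permutation p = 0.2, adjusted 0.25), with overlapping groups and few counts of Acacb. That of Srebf1 to its relative Srebf2, which mainly drives cholesterol synthesis, differed by 0.06 (exact permutation p = 0.3, adjusted 0.3). The 3 knockdown ratios of Srebf1 to Srebf2, -1.25, -1.24 and -1.39, overlapped the control range of -1.41 to -1.29. With Ctrl shRNA replicate 2 left out, the differences were -0.17 for Scd1 to Scd2, -0.12 for Fads1 to Fads2, 0.99 for Acaca to Acacb and 0.09 for Srebf1 to Srebf2.

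**Figure D4:**
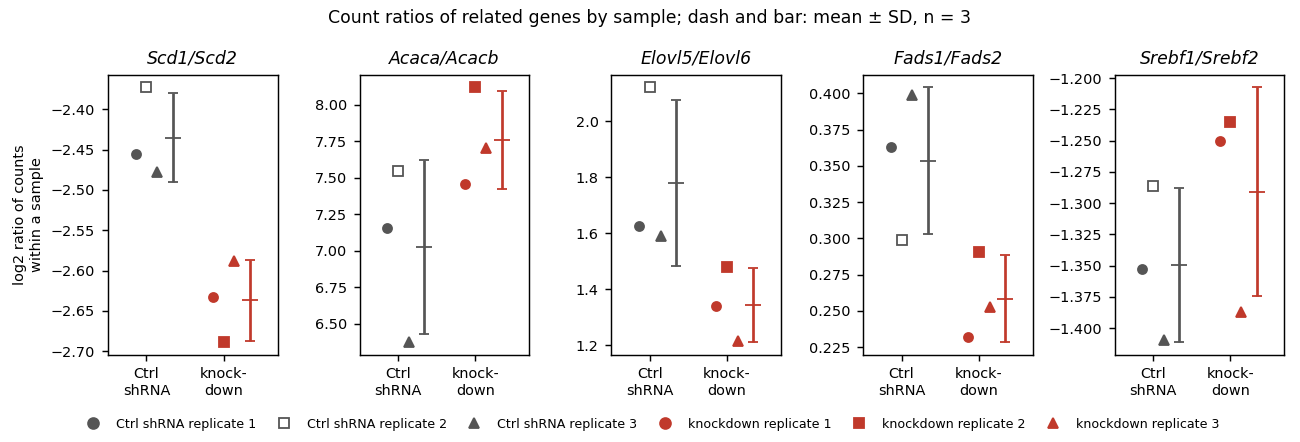
Log2 ratio of the counts of related genes within each library (vertical axes differ and do not start at 0), with Ctrl shRNA samples in grey (replicate 2 open), knockdown samples in red and group means with SD. The groups are apart for Scd1/Scd2, Elovl5/Elovl6 and, by a narrow margin, Fads1/Fads2, and overlap for Acaca/Acacb and Srebf1/Srebf2. How often other pairs of genes separate the groups was not computed.

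Other genes of the pathway were taken as 5 lists. In edgeR, 0 of their tested genes passed an adjusted p of 0.05 with all samples or without Ctrl shRNA replicate 2. At an unadjusted p under 0.05 with all samples, 1, 2, 2, 1 and 3 genes of the 5 lists, in the order below, were higher, which is 7.69%, 15.4%, 12.5%, 7.14% and 15.0% of those tested beside 7.47% of all genes. At the same p, 1 gene of glycerolipid synthesis, 7.14% of that list, was lower beside 6.65% of all genes. DESeq2 with all samples called 0, 1, 0, 0 and 1 genes of the 5 lists higher and 0 lower, beside 2.2% and 1.6% of all genes. The gene of the second list was Acsl5. DESeq2 without Ctrl shRNA replicate 2 called 0, 2, 1, 0 and 2 genes of the 5 lists higher and 0 lower, beside 4.74% and 3.35% of all genes. Limma-voom with sample quality weights called 1, 3, 2, 0 and 3 higher, beside 8.67% of all genes, and 2 lower, Chpt1 and Tm7sf2, beside 6.34%. Of 15 other elongation and desaturation enzymes, 13 were tested, and 4 had a positive log2 fold change with all samples and 7 without that library. The median was -0.09 and 0.01 in these fits. Hacd3, a dehydratase of the elongation cycle, had a log2 fold change of 0.25 ± 0.07 (SE) with an edgeR adjusted p of 0.288. Elovl7, an elongase of long saturated chains, was at -0.38 ± 0.18 and Hsd17b12, the ketoreductase of the cycle, at 0.03 ± 0.13, neither past the threshold. These were -0.19 ± 0.12 and 0.16 ± 0.07 without Ctrl shRNA replicate 2. Elovl2 and Elovl3, with 4 and 0 counts over all libraries, did not pass the count filter.

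Of 14 genes of acetyl-CoA and malonyl-CoA supply and acyl-CoA activation, 13 were tested and 8 lay above 0 on the log2 scale, and the list median was 0.03, or 0.09 without Ctrl shRNA replicate 2. Acly, the enzyme that splits cytosolic citrate into acetyl-CoA, was at 463, 394 and 416 CPM across the 3 controls, against 501, 487 and 512 CPM across the 3 knockdown samples. The groups did not overlap, and the log2 fold change was 0.24 ± 0.10 (SE) with an edgeR adjusted p of 0.354, or 0.18 ± 0.07 with 0.234 without Ctrl shRNA replicate 2. Acsl5, an acyl-CoA synthetase, was at 101, 94.7 and 102 CPM against 129, 132 and 122 CPM. Its log2 fold change of 0.37 ± 0.07 had an edgeR adjusted p of 0.203, and that of 0.33 ± 0.07 without the library had one of 0.0505, while DESeq2 with all samples gave 0.00297. Me1, the cytosolic malic enzyme that supplies NADPH, was at 0.30 ± 0.09, and Mcat, of the mitochondrial pathway, at -0.02 ± 0.18, with edgeR adjusted p of 0.324 and 0.966, and Mcat moved to -0.20 ± 0.10 without that library.

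Of 16 genes of SREBP and ChREBP control, all were tested and 8 lay above 0 on the log2 scale, and the list median was 0.01, or -0.02 without Ctrl shRNA replicate 2. Srebf2 was at 558, 441 and 514 CPM in the controls, compared with 619.8, 655 and 622 CPM after knockdown, with a log2 fold change of 0.33 ± 0.12 (SE) and an edgeR adjusted p of 0.344. Insig1, a target of SREBP that holds it in the endoplasmic reticulum, was at 552, 504 and 569 CPM against 525, 476 and 502 CPM, with a log2 fold change of -0.11 ± 0.10 and an edgeR adjusted p of 0.560. Its sign was opposite to that of both Srebf genes, and the groups overlapped. Without Ctrl shRNA replicate 2 they did not overlap, and Insig1 was at -0.17 ± 0.07 with an edgeR adjusted p of 0.217. Mlxip, a relative of ChREBP, was at 0.31 ± 0.09 and Usf2, an E-box factor, at -0.13 ± 0.11 on the log2 scale, neither past the threshold, and Usf2 was at -0.23 ± 0.08 without Ctrl shRNA replicate 2.

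Of 15 genes of glycerolipid and phosphatidylcholine synthesis, 14 were tested and 8 lay above 0 on the log2 scale with all samples and 6 without Ctrl shRNA replicate 2, for list medians of 0.02 and -0.09. Chpt1, which makes phosphatidylcholine, was at 55.5, 62.3 and 59.4 CPM across the 3 controls, against 48.1, 46.9 and 50.7 CPM across the 3 knockdown samples. All knockdown samples lay below all controls, and the log2 fold change of -0.28 ± 0.08 (SE) had an edgeR adjusted p of 0.299. Lpcat3, which remodels phospholipids, was at -0.07 ± 0.12 and Cept1 at -0.58 ± 0.29. Leaving out Ctrl shRNA replicate 2 moved Lpcat3 to -0.19 ± 0.08, with every knockdown sample below the remaining controls and an edgeR adjusted p of 0.223. It moved Cept1 to -0.18 ± 0.11, and that library had Cept1 at 46.4 CPM against 21.4 and 25.3 CPM in the other controls.

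Of 20 genes of cholesterol synthesis, all were tested and 12 lay above 0 on the log2 scale, or 14 without Ctrl shRNA replicate 2, for list medians of 0.08 and 0.07. Tm7sf2, a sterol reductase of the pathway, was at -0.27 ± 0.16 (SE) on the log2 scale with an edgeR adjusted p of 0.409, and at -0.39 ± 0.13 with 0.158 without Ctrl shRNA replicate 2. The medians of the 5 lists ran from -0.09 to 0.08 with all samples, beside 0.26 for the 10 genes of fatty acid synthesis, a difference that was not tested.

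**Figure D5:**
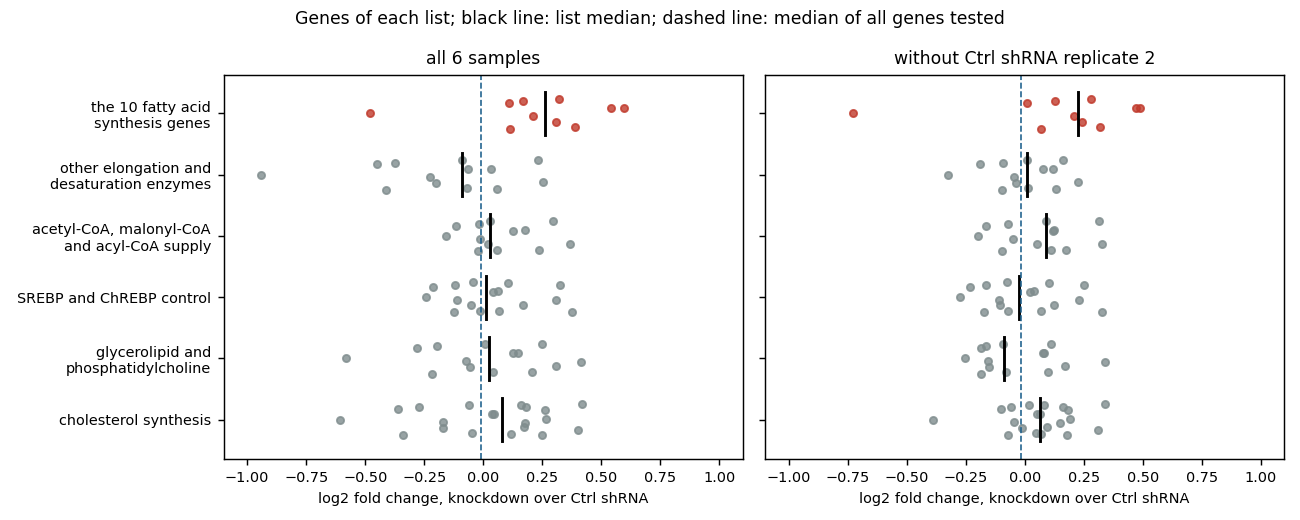
Log2 fold change of each tested gene (points) by list, with the list median as a black line and the median of all genes tested as a dashed line, with all 6 samples (left) and without Ctrl shRNA replicate 2 (right). The median of the 10 genes, in red, lies at 0.26 and 0.22, and those of the other lists lie between -0.09 and 0.09.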

How the data were processed

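RNA-seq of 6 MLE12 samples was analysed, 3 with Ctrl shRNA and 3 with both knockdown shRNAs, grouped by the sample labels. Read counts per gene, whole numbers with no normalization, were deposited by the authors together with FPKM values, which equal the counts over the gene length and a library size of 0.716 to 1.08 times the total. The submitters' processing notes name HISAT2 2.0.5, StringTie 1.3.3b, featureCounts 1.5.0-p3 and the build mm10, without their roles, and the labels also name Trinity. Of the genes, 54409 were in GENCODE M21 and 98.3% of these had the same start and end. There were 0 unused columns of per-sample values.

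Counts were filtered with filterByExpr, scaled by TMM and tested with the quasi-likelihood test of edgeR 4.0.16 in R 4.3.3, two-sided, with no covariate and Benjamini-Hochberg adjustment over all genes tested. CPM uses the same factors. Ratios used a prior count of 0.5 and exact permutation tests (SciPy 1.17.1). Alternatives were DESeq2 1.42.0, limma 3.58.1 (voom with sample quality weights, or log2(FPKM + 1) and log2(FPKM + 0.1)), other scaling and filters, the replicate number as a block, and each library left out. DESeq2 on all genes with at least 1 count was added after seeing the data. An adjusted p that DESeq2 left undefined stayed undefined, as for Acacb. The pipeline was tested on simulated data.

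The 10 genes and the lists were chosen with earlier results of these data known. All 10 genes are named. From each other list the text names those past an adjusted p of 0.05 with all samples or without Ctrl shRNA replicate 2, otherwise the 3 with the largest absolute change without it at a mean of at least 5 CPM, plus Acly, Srebf2 and Insig1. None passed. Some items that this rule names are not reported here. Promoters and motifs came from RefSeq (GRCm38.p6). Scd1, Scd2 and Fads1 had no entry.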

Additional observations from a re-analysis of the deposited data

How the results depend on the processing

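The fold changes of the 10 genes kept their sign under every one of the 20 fits run, the reported one included, with 9 positive and Acacb negative, but the calls depended on the fit. With all samples, 9 genes were higher and 1 lower at an adjusted p under 0.05, and 0 of the 10. Leaving out 1 library at a time gave 0 to 175 genes higher, 0 to 106 lower and 0 to 2 of the 10 higher, where the highest values were without Ctrl shRNA replicate 2. DESeq2 gave 265 higher and 192 lower with 3 of the 10 higher, DESeq2 without that library 543 and 383 with 5, and DESeq2 on all genes with at least 1 count 218 and 135 with 2. Limma-voom with sample quality weights gave 1327 and 971 with 6, namely Fasn, Acaca, Scd2, Elovl5, Elovl6 and Srebf1. Library size alone gave 1 and 0, log2(FPKM + 0.1) gave 5 genes higher, and no filter gave 3 lower. None of the 10 was called lower in any fit. Scaling by library size alone moved the median of all genes to 0.16, so under it the changes are relative to that shift, and the sign of a list's median is not firm: that of the other elongation and desaturation enzymes was 0.10. The calls of Scd2 and Srebf1 rested on DESeq2 without Ctrl shRNA replicate 2 and the quality weights, and that of Elovl5 on the weights alone. Scd1, Fads1, Fads2 and Acacb passed in 0 of the fits. The cause of these differences was not tested.

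Samples of the same replicate number deviated from their group means with correlations of -0.15, -0.09 and 0.04. Samples of different numbers had correlations of -0.04 to 0.15. The values show no sign of pairing by number, but with 3 samples a group they cannot settle whether the samples were paired. With the replicate block 0 genes were higher and 0 lower, of the 10 too. For the 5 ratios no exact test of this size could pass the threshold, so their p values say nothing about stability. Acacb had 15 to 52 counts a library, the fewest of the 10 genes, so its values are the least precise. The dispersion of the counts, as a biological coefficient of variation, was 0.263 with all samples and 0.102 without Ctrl shRNA replicate 2.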
